A study of Canis lupus familiaris with 18 samples.

Results

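FGF4, the FGF receptor genes FGFR1 to FGFR4, the ligand genes FGF1, FGF2 and FGF9, and the feedback genes SPRY2 and SPRY4 were examined in canine high grade oligodendroglioma (HGO). The 10 genes were looked up by symbol in the table of 29993 genes, of which 16324 have a symbol, and 7 were found. FGF1, FGF2 and SPRY4 were not matched by symbol and are not analysed here. FGF4 was selected on its counts in French bulldogs and in the other breeds in these same libraries, so its breed difference is given as a description, with no test, and the other genes were chosen by their place in FGF signaling.

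RNASeq was performed on formalin-fixed, paraffin-embedded tumor tissue from the forebrain of dogs. Of the 18 libraries, 11 are labelled French bulldog, 4 boxer and 3 Boston terrier, and the last 2 breeds together are called the comparison group. Boxers and Boston terriers carry the control numbers of the sample titles, which are not the numbers that the paper gives these dogs. All groups are HGO by the study's diagnosis and differ by breed as labelled. There was no treatment and no normal brain among the libraries analysed here. Per the paper, age, sex and tumor location also differed between French bulldogs and the comparison group and were not matched. Breed cannot be told apart from these here. The labels of French bulldogs 2 and 8 carry the same case number. The study lists them as separate dogs, but with the same age, sex and tumor location. Whether they are separate dogs was left as unsettled here. Sample sizes of 11 count libraries and so take them separately. Whole pieces of tumor were sequenced, so fewer cells of a type and less RNA per cell cannot be told apart.

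FGF ligands bind receptor tyrosine kinases on the cell surface together with heparan sulfate or a Klotho co-receptor. The receptors signal through adaptor proteins to RAS and the MAP kinases, and Sprouty proteins are made in response and dampen the same cascade. In the brain, FGFR1 is found in many cell types, FGFR2 in oligodendrocytes and astrocytes, and FGFR3 mainly in astrocytes and glial progenitors. FGF9 is made by neurons, among other cells, and FGF4 is known as an embryonic growth factor.

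The libraries held 8212452 to 13169880 counts on genes. Levels are given as CPM, the counts on a gene scaled to a fixed library total, after TMM normalization, which adjusts for the makeup of each library. They are not corrected for gene length, so they are compared between dogs and not between genes. French bulldog 6 stood apart. Its 8 oligodendrocyte lineage markers summed to 60.9 CPM, against 2219 to 8315 CPM in the other French bulldogs and 2158 to 3868 CPM in the comparison group, and OLIG2 and NKX2-2 were at 0. Its 6 macrophage and microglia markers summed to 4367 CPM, against at most 180.3 CPM in any other French bulldog and 103.0 CPM in the comparison group. The other 17 libraries carried the markers of the labelled tumor type. French bulldogs 2 and 8 were the most alike of 153 pairs of libraries, with a Pearson correlation of 0.981 over genes against 0.946 for the next pair.

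FGF4 (ENSCAFG00000029983) was counted in every French bulldog and in no comparison dog, a complete separation that 0.0121% of the genes tested had in this direction and from which nothing is read, as it chose the gene. French bulldogs 1 to 11 had, in order, 65, 19, 11, 2, 6, 26, 14, 36, 41, 16 and 30 counts. The 4 boxers and the 3 Boston terriers each had 0. Across the French bulldog libraries this summed to 266 counts among 119799959, against 0 among 72058488 in the comparison group. A count of 0 allows up to 3 counts per library by a one-sided limit. In the comparison dogs this is 0.248 to 0.334 CPM, scaled to the library total without TMM. The two-sided Poisson interval allows up to 3.69 counts. The 2 counts of French bulldog 4 were therefore within what a comparison dog could hold unseen. The other 10 French bulldogs had 3 counts or more.

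Among French bulldogs FGF4 averaged 2.20 CPM ± 1.40 (SD, n = 11), with French bulldog 4 lowest at 0.186 CPM, a median of 2.12 CPM and French bulldog 1 highest at 4.82 CPM. The exact 95% Poisson interval of French bulldog 1 was 50.2 to 82.8 counts, that of French bulldog 9 was 29.4 to 55.6 counts and that of French bulldog 4 was 0.242 to 7.22 counts. The ends of the order therefore differed beyond counting error, while neighbors in it overlapped. These intervals cover counting error only. French bulldog 6, with hardly any oligodendrocyte lineage RNA, still had 26 FGF4 counts, or 2.69 CPM, the fifth highest level. French bulldogs 2 and 8 had 2.12 and 3.66 CPM.

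**Figure D1:**
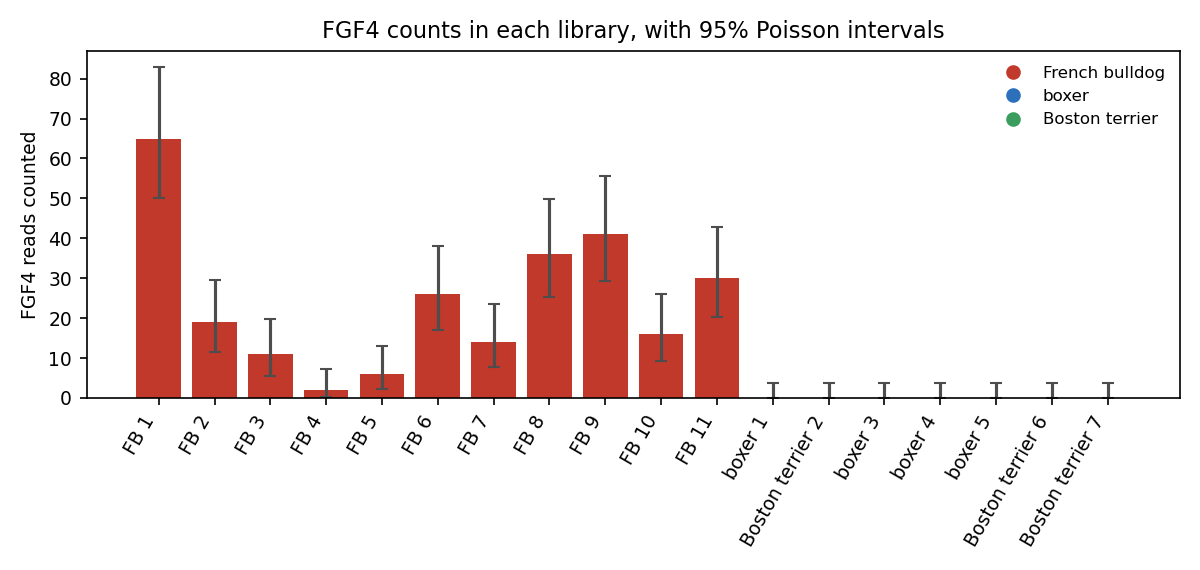
Reads counted on FGF4 in each library (bars), with exact 95% Poisson intervals (lines); FB is French bulldog. Counts in French bulldogs run from 2 in French bulldog 4 to 65 in French bulldog 1, and all 7 boxers and Boston terriers are at 0.

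Of the receptors, none passed the test between breeds. For the 6 other genes found, edgeR's quasi-likelihood test with Benjamini-Hochberg adjustment over 16495 genes called 0, against 1 gene among all tested, or 0.00606%. That gene was FGF4 itself, whose call is not read as a result. At an unadjusted p under 0.05 edgeR picked 0 of the 6 against 10.6% of all genes. The lowest adjusted p was 0.584, for FGFR3. With the libraries of French bulldogs 2 and 8 summed, the lowest adjusted p in edgeR's test was 0.638, also for FGFR3. What set the French bulldogs apart in description was the width of their range for FGFR2 and FGFR3 rather than a common level.

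FGFR1 (ENSCAFG00000005970) had nearly the same mean in both groups. In French bulldogs it ran from 22.3 CPM in French bulldog 6 through a median of 63.8 CPM to 134.7 CPM in French bulldog 11. The boxers 1, 3, 4 and 5 had 49.5, 44.9, 87.4 and 60.6 CPM, and the Boston terriers 2, 6 and 7 had 64.8, 72.5 and 81.7 CPM. Only French bulldogs 6 and 11 lay outside the comparison range. The mean was 66.1 CPM ± 27.3 (SD, n = 11) against 65.9 CPM ± 15.8 (SD, n = 7), a log2 fold change of 0.00 (SE 0.24, edgeR adjusted p = 0.998).

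FGFR2 (ENSCAFG00000012374) ran from 0.414 CPM in French bulldog 6 through a median of 22.6 CPM to 154.3 CPM in French bulldog 9. The boxers had 26.7, 16.4, 41.9 and 24.6 CPM, and the Boston terriers had 17.7, 22.4 and 9.34 CPM. French bulldogs 2 and 8, the libraries with the shared case number, were low at 2.34 and 3.15 CPM. Of the 11 French bulldog libraries, 2 lay above every comparison dog, 3 below (those of French bulldogs 2, 6 and 8) and 6 within their range. The log2 fold change was 0.52 (SE 0.73, edgeR adjusted p = 0.835), but its direction was not stable, at -0.16 without French bulldog 9 and -0.46 with limma-voom over all libraries. Astrocyte markers moved alongside in the libraries at the ends of the range. The 5 listed markers summed to 372 and 473 CPM in French bulldogs 2 and 8, to 49.3 CPM in French bulldog 6 and to 4931 CPM in French bulldog 9, the lowest 3 sums and the highest among French bulldogs, with 650 to 3258 CPM in the comparison group. Oligodendrocyte lineage markers did so only in part, with 60.9 CPM in French bulldog 6 and 8315 CPM in French bulldog 9, but 6903 and 6947 CPM in French bulldogs 2 and 8. The part of either list in the FGFR2 levels was not tested.

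FGFR3 (ENSCAFG00000014993) had, among the receptors, the largest ratio of the spread on log2 CPM in French bulldogs to that in the comparison group. It ran from 1.14 CPM in French bulldog 6 through a median of 29.2 CPM to 165.1 CPM in French bulldog 11, with 78.9 CPM in French bulldog 9. The boxers had 18.9, 17.96, 30.7 and 24.4 CPM, and the Boston terriers had 16.8, 24.3 and 18.02 CPM. All 7 comparison dogs thus lay within 1.83-fold of each other. Of the 11 French bulldog libraries, 5 were above all of them, 4 below and 2 within their range. French bulldogs 2 and 8, low in FGFR2 and in astrocyte markers, were among the 5 above at 40.3 and 38.8 CPM. French bulldog 1, with 3970 CPM of astrocyte markers, had 8.46 CPM of FGFR3. The log2 fold change was 0.93 (SE 0.61, edgeR adjusted p = 0.584). Without French bulldog 6 it was 1.10 (SE 0.50) with an unadjusted p of 0.0401 in edgeR's test and an adjusted p of 0.443. Without French bulldog 11 it was 0.41 (unadjusted p = 0.430 and adjusted p = 0.807 in edgeR's test), and limma-voom gave 0.13 over all libraries.

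On log2 CPM, FGFR2 had the widest spread among French bulldogs, with an SD of 2.27 against 0.67 in the comparison group. FGFR3 had an SD of 1.84 among French bulldogs against 0.32 in the comparison group, a ratio of 5.78. The median ratio over the genes tested was 1.52, and 98.1% of them had a smaller ratio than FGFR3. Without French bulldog 6 the FGFR3 ratio was 4.06 against a median of 1.28, with 98.8% of genes smaller. The ratio of FGFR2 was 3.40, larger than that of 91.4% of genes, and 2.67 without French bulldog 6. The ratio was 2.11 for SPRY2, 2.05 for FGF9, 1.73 for FGFR1 and 1.25 for FGFR4, and without French bulldog 6 it was 1.37, 1.58, 1.13 and 0.811. These ratios are a description, with no test of the spread itself.

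FGFR4 (ENSCAFG00000016518) was counted at most 47 times in any library, so its values are the least precise of the receptors. It ran from 0 CPM in French bulldog 6 through a median of 1.49 CPM to 3.22 CPM in French bulldog 3. The boxers had 4.70, 2.19, 2.95 and 3.67 CPM, and the Boston terriers had 2.63, 0.751 and 0.661 CPM. No French bulldog lay above the comparison range, and 3 libraries lay below it, those of French bulldogs 2, 6 and 8. The log2 fold change was -0.65 (SE 0.55, edgeR adjusted p = 0.687). It was -1.08 against the boxers alone and 0.27 against the Boston terriers alone, so its direction turned with the comparison dogs used. Boston terrier 2 lay within the range of the boxers.

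**Figure D2:**
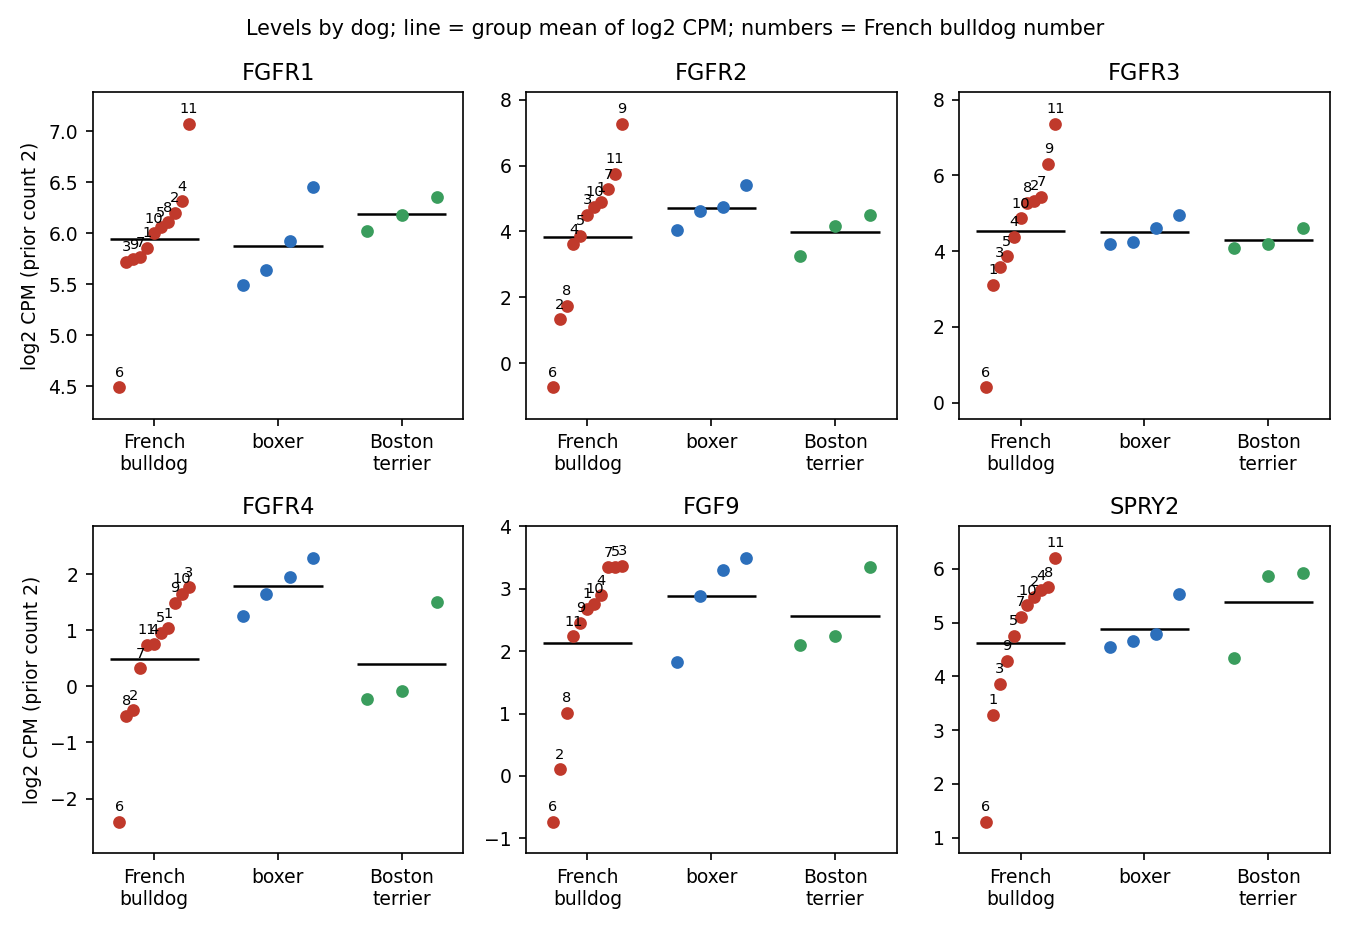
Levels of the 4 receptor genes, FGF9 and SPRY2 in every library (points) as log2 CPM with a prior count of 2, by breed; lines are group means and numbers are French bulldog numbers. FGFR2 and FGFR3 span a wider range among French bulldogs than in the 7 other dogs, and French bulldog 6 is lowest for all 6 genes.

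FGF9 (ENSCAFG00000029890), the other ligand of the set, was not called either. It ran from 0.414 CPM in French bulldog 6 through a median of 6.23 CPM to 10.1 CPM in French bulldog 3. The boxers had 11.1, 7.20, 9.70 and 3.34 CPM, and the Boston terriers had 9.95, 4.09 and 4.55 CPM. French bulldogs 2 and 8 were again low, at 0.891 and 1.83 CPM, and with French bulldog 6 they were the 3 libraries below the comparison range. The log2 fold change was -0.31 (SE 0.49, edgeR adjusted p = 0.858), and -0.15 without French bulldog 6. Its direction turned with the comparison dogs used, at -0.72 against boxers 1, 3 and 4 and Boston terrier 2 and at 0.54 against boxer 5 and Boston terriers 6 and 7, the sets that the library index numbers form.

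SPRY2 (ENSCAFG00000005260), which encodes a Sprouty feedback inhibitor of receptor tyrosine kinase signaling, also did not pass the test. It ran from 2.28 CPM in French bulldog 6 through a median of 34.3 CPM to 73.4 CPM in French bulldog 11. The boxers had 46.2, 27.4, 25.02 and 23.1 CPM, and the Boston terriers had 20.1, 60.7 and 57.9 CPM. French bulldog 1, with the most FGF4, had 9.57 CPM, the second lowest level among French bulldogs. The log2 fold change was -0.17 (SE 0.46, edgeR adjusted p = 0.925). It was -0.36 to -0.01 when 1 library was left out and -0.50 with limma-voom. Its direction turned with the comparison dogs used, at -0.49 against the Boston terriers alone and 0.12 against the boxers alone. Boston terrier 2 lay below every boxer, so this turn is not assigned to breed.

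Because the comparison group mixes 2 breeds, boxers were also set against Boston terriers. In this comparison edgeR's quasi-likelihood test called 0 of 17934 genes, or 0%, with 381 (2.12%) at an unadjusted p under 0.05, and DESeq2 also called 0. FGFR4 had the largest log2 fold change of the 6 genes, 1.32 higher in boxers (SE 0.89, unadjusted p = 0.156 and adjusted p = 1 in edgeR's test), and 0.99 without Boston terrier 7 to 2.23 without Boston terrier 2. FGFR2 followed at 0.73 higher in boxers (SE 1.17) and SPRY2 at -0.61 (SE 0.73). These standard errors take in the spread of the French bulldogs, which share the fit. With the 7 comparison dogs alone, FGFR4 was 1.31 (unadjusted p = 0.0592 and adjusted p = 0.795 in edgeR's test) and FGFR2 0.72 (unadjusted p = 0.0869 and adjusted p = 0.805 in edgeR's test).

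**Figure D3:**
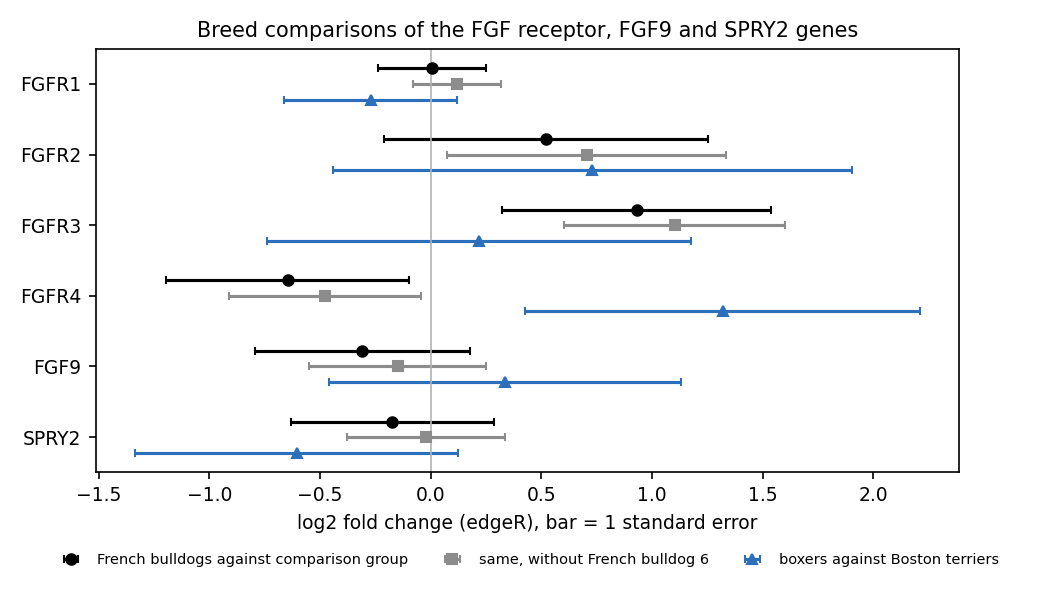
Log2 fold changes from edgeR (points) with 1 standard error on each side (lines) for the 4 receptor genes, FGF9 and SPRY2, between French bulldogs and the comparison group with and without French bulldog 6, and between boxers and Boston terriers. None had an adjusted p under 0.05, with FGFR3 at 0.93 and 1.10 the furthest above 0 for French bulldogs.

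Whether receptor and feedback genes followed the FGF4 level was examined within French bulldogs only, with the counts of libraries 2 and 8 summed, which left 10 units. A model with the log2 CPM of FGF4 as covariate gave the change of each gene per unit of log2 FGF4. edgeR's quasi-likelihood test called 0 of 18008 genes, or 0%, with 539 (2.99%) at an unadjusted p under 0.05, and DESeq2 called 7. None of the 6 genes passed either threshold in edgeR's test. The slopes were 0.00 (SE 0.17) for FGFR1, 0.69 (SE 0.51) for FGFR2, 0.58 (SE 0.47) for FGFR3, -0.07 (SE 0.40) for FGFR4, -0.36 (SE 0.32) for FGF9 and -0.13 (SE 0.33) for SPRY2, each with an adjusted p of 0.999. Single dogs moved the larger slopes, with FGFR2 at 0.28 without French bulldog 9, and FGFR3 at 0.27 without French bulldog 11 and 0.95 without French bulldog 4. The FGF9 slope was -0.56 without French bulldog 1 and -0.57 without French bulldog 4.

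Rank correlations over the same 10 units, 6 relations in all, gave none past a p of 0.05. For FGFR2, Pearson's r was 0.07 (permutation p = 0.841) and Spearman's rho was 0.45 (permutation p = 0.192). French bulldog 6 and the summed unit of 2 and 8 combined much FGF4 with little FGFR2, and leaving out 1 unit gave a rho of 0.30 (without French bulldog 9 or 11) to 0.60 (without French bulldog 6 or the summed unit). With libraries 2 and 8 separate, rho was 0.21 (permutation p = 0.539, n = 11). For FGFR3, r was 0.07 (permutation p = 0.850) and rho was 0.21 (permutation p = 0.559), with a range of 0.0667 to 0.60 when 1 unit was left out, the highest without French bulldog 1. For SPRY2, r was -0.30 (permutation p = 0.393) and rho was -0.21 (permutation p = 0.561). For FGFR1, rho was -0.10 (permutation p = 0.783), and for FGFR4 it was 0.03 (permutation p = 0.946), with r of -0.12 (permutation p = 0.735) and -0.17 (permutation p = 0.617).

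FGF9 had the strongest correlation with FGF4 of the 6 genes, and it was negative. Its r was -0.41 (permutation p = 0.243) and its rho was -0.64 (permutation p = 0.0546). Counting libraries 2 and 8 separately gave a rho of -0.63 (permutation p = 0.0444, n = 11), the only p under 0.05 among the 6 relations under this choice, and it treats the libraries of the shared case as separate dogs. Neuron markers varied alongside. The 6 markers summed to 54.8 to 72.8 CPM in French bulldogs 1, 2, 8 and 11 and to 0.828 CPM in French bulldog 6, all with FGF4 at or above the median, and to 132 to 1068 CPM in French bulldogs 3, 4, 5, 7 and 10, all with FGF4 below it. French bulldog 9, with 3.15 CPM of FGF4, had the highest sum, 1204 CPM. Their part in the relation of FGF9 with FGF4 was not tested. Leaving out French bulldogs 4 and 5, the units farthest from the median FGF4 level, gave r of -0.37 for FGF9, 0.09 for FGFR1, -0.02 for FGFR2, 0.00 for FGFR3, -0.20 for FGFR4 and -0.17 for SPRY2.

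**Figure D4:**
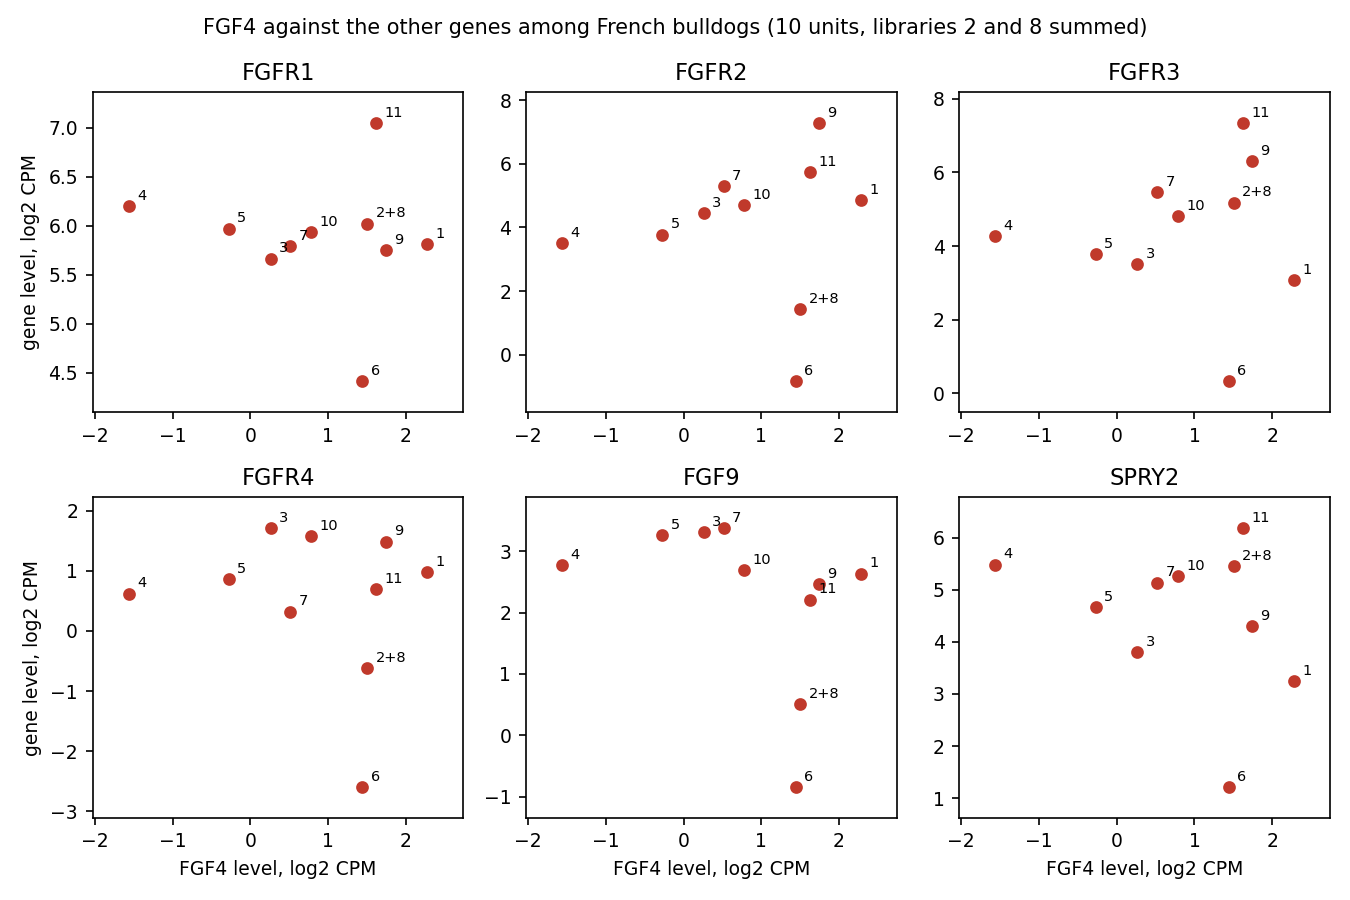
Level of each gene (log2 CPM, vertical) against the FGF4 level (log2 CPM, horizontal) in 10 French bulldog units, numbered by dog, with libraries 2 and 8 summed. The correlation is most negative for FGF9 (rho -0.64, permutation p = 0.0546) and most positive for FGFR2 (rho 0.45, permutation p = 0.192), neither past 0.05.

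The wider FGF pathway was read from lists of genes by role. Apart from FGF4, no gene of any list had an adjusted p under 0.05 between breeds in edgeR's test. Of 22 genes in the FGF ligand list 18 were found, and 6 besides FGF4 had enough counts to be tested. They had 1 positive and 5 negative values for French bulldogs and a median log2 fold change of -0.31 against 0.04 over all genes. Without French bulldog 6, 2 were positive and 4 negative, with a median of -0.15 against 0.05. Only FGF9 and FGF10 of the 6 are secreted ligands, the others being intracellular FGFs such as FGF11. The medians therefore do not describe secreted ligands. FGF10, a ligand typical of mesenchymal cells, had a log2 fold change of 3.07 (edgeR adjusted p = 0.446), but French bulldog 6 alone held 1507 counts, 86.2% of the French bulldog sum of CPM, and without it the value was 0.39. The mesenchymal and mural markers of French bulldog 6 summed to 866 CPM, against 36.2 to 829.3 CPM in the other French bulldogs. French bulldog 11, at 829.3 CPM, had 6 FGF10 counts, or 0.593 CPM. The part of these markers in the FGF10 levels was not tested. The lowest value was that of FGF11, an intracellular FGF, at -0.72 (edgeR adjusted p = 0.469), or -0.30 without Boston terrier 7, followed by FGF12 at -0.57 (edgeR adjusted p = 0.781). FGF5, named here for its values, reached 402 counts in French bulldog 11 against a comparison maximum of 14, and had too few counts elsewhere to be tested.

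Of the co-receptors and binding proteins, 16 were tested, 12 with positive and 4 with negative values and a median of 0.19, which was 0.33 without French bulldog 6. The heparan sulfate carriers SDC4, GPC4 and GPC3 had log2 fold changes of 1.35, 0.83 and 0.78, and SDC3, FGFRL1 (a receptor without a kinase domain) and GPC2 had -0.52, -0.55 and -0.78. French bulldog 6 held 33.7% of the French bulldog sum of SDC4, and French bulldog 11 held 41.8% of that of GPC4, which was 0.19 without it. Among 17 adaptors and kinases of the RAS cascade, 12 were positive, with a median of 0.16. SOS2, an exchange factor that activates RAS, had a log2 fold change of 0.35 (edgeR adjusted p = 0.462) and the phosphatase PTPN11 had 0.23, while BRAF and the adaptor SHC1 each had -0.23. When 1 library was left out, BRAF ran from -0.30 to -0.08 (without boxer 4) and SHC1 from -0.36 (without French bulldog 6) to -0.07 (without boxer 5). On the FGF4 level among French bulldogs, 9 co-receptor genes had positive and 8 negative slopes, none with an adjusted p under 0.05 in edgeR's test. The slope of SDC4 was 1.12, and 0.93 to 1.30 when 1 unit was left out.

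Of the 16 feedback and target genes tested, 9 were positive and 7 negative, with a median of 0.07. Without French bulldog 6, 10 were positive and 6 negative, with a median of 0.13. DUSP6, a phosphatase of ERK and a common readout of FGF signaling, averaged 95.6 CPM ± 34.2 (SD, n = 11) against 125.8 CPM ± 58.3 (SD, n = 7), a log2 fold change of -0.40 (SE 0.29, edgeR adjusted p = 0.630), and -0.22 without Boston terrier 7. The Sprouty gene SPRY3 had -0.76 and the ETS factor gene ETV1 had -0.29, or -0.18 without French bulldog 6. DUSP5, another ERK phosphatase, had 1.17, or 0.75 without French bulldog 11, and SPRED1, a RAS pathway inhibitor, had 0.21, none of them past the threshold. On the FGF4 level among French bulldogs, 9 genes of this list had positive and 8 negative slopes, none passing in edgeR's test. The slope of DUSP6 was -0.31, and -0.37 to -0.23 when 1 unit was left out.

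FGF4 lies in a gene cluster that, in the RefSeq order, runs through PPFIA1, ANO1, FGF3, FGF4, FGF19, LTO1 and CCND1, so the neighbors were read as well. According to the paper, French bulldogs carry an FGF4 retrogene at very high frequency, Boston terriers carry neither known retrogene, and boxers had not been evaluated. Whether the FGF4 counts come from this cluster or from a retrogene was not tested. FGF19, the gene next to FGF4, had 0 counts in 10 of 11 French bulldogs and 2 in French bulldog 11, with at most 2 in the comparison group. LTO1 had a log2 fold change of 0.17, PPFIA1 0.22 and the chloride channel gene ANO1 -0.59 (edgeR adjusted p = 0.874, 0.695 and 0.750). ANO1 was -1.05 without French bulldog 3, and LTO1 ran from 0.01 without French bulldog 11 to 0.45 without boxer 1. FGF3 and FADD were not matched by symbol. CCND1, which encodes cyclin D1, was the neighbor with the largest value, 1.87 (SE 0.77, edgeR adjusted p = 0.433). It ran from 9.99 CPM in French bulldog 9 through a median of 65.4 CPM to 1110 CPM in French bulldog 1, against 32.3 to 76.1 CPM in the comparison group. French bulldog 1, the dog with the most FGF4, held 14959 CCND1 counts, 59.9% of the French bulldog sum of CPM. French bulldog 9, with the third highest FGF4 level, had the least CCND1. The slope of CCND1 on the FGF4 level was 1.10 (SE 0.37, unadjusted p = 0.0127 and adjusted p = 0.999 in edgeR's test). Both values rested on French bulldog 1, without which the log2 fold change between breeds was 0.69 (edgeR adjusted p = 0.595) and the slope was 0.42 (unadjusted p = 0.263 in edgeR's test). The slope was 1.80 without French bulldog 4.

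Among 11753 genes with a symbol, those that ranked most like FGF4 over the 10 French bulldog units were LIPF and PSMC1, each with a Spearman correlation of 0.90, followed by DICER1, KDM3B and MAPK6 at 0.87, a value that MFHAS1 and RPS6KA5, named for this tie after it was seen, shared. In all 30 genes had a correlation of at least 0.8 and 33 of at most -0.8. How many of 11753 genes would reach such values by chance over 10 units was not worked out, so no relation is read from them. FGFR2 ranked 1279th, FGFR3 3624th, SPRY2 8698th and FGF9 11399th. These likenesses come from 10 units that share depth and tissue makeup with FGF4 itself, and LIPF was counted only 4 to 28 times a library.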

How the data were processed

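Total RNA from formalin-fixed, paraffin-embedded scrolls was sequenced in 18 libraries with a stranded kit that removes ribosomal RNA. Per the labels and methods, the authors used Trimmomatic 0.33, FastQC, HISAT2 2.1.0 and featureCounts against canFam6. The authors deposited raw counts per gene, without normalization, totalling 8212452 to 13169880 per library, and the strand setting of the counting is not given in the sources used here. Counts were tested with edgeR 4.0.16 (TMM, filterByExpr, robust quasi-likelihood F test) in R 4.3.3, with Benjamini-Hochberg adjustment over all genes tested and a threshold of 0.05. DESeq2 1.42.0 and limma 3.58.1 were alternatives. Log2 CPM used a prior count of 2, and correlations used 100000 two-sided permutations. The slope on FGF4 was first filtered as for 1 group of all units, which dropped FGFR2, FGFR4 and FGF9. The filter was changed to follow the design after this was seen, and the first is kept as an alternative.

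Members and gene lists were chosen with earlier results of these data known. Named genes were the 10 members, the FGF4 neighbors, up to 3 genes per list and direction with the smallest p, the 5 genes most like FGF4, and cell type markers at 0. Other genes named were chosen after their values were seen and are marked so. Beyond their titles, the labels do not say that libraries came from separate dogs, so p-values measure the spread between these libraries. Statistics were tested on simulated data. Tables came from pandas 2.3.3 under Python 3.11.15, and figures from matplotlib 3.10.9. Results for some genes that this rule picks are not reported here.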

Additional observations from a re-analysis of the deposited data

How the results depend on the processing

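None of the 6 genes was called under any alternative, and edgeR, DESeq2 and limma adjusted p-values for FGFR3 between breeds ran from 0.443 to 1.00. The number of genes called between breeds was 1 with edgeR, 58 with DESeq2, 2 with limma-voom, 2 with upper quartile normalization, and 0 with libraries 2 and 8 summed, against boxers only, against the comparison dogs of either library index series, or with a replicate block. Against Boston terriers only it was 1, a gene lower in French bulldogs and so not FGF4. Leaving out 1 library gave 0 to 7. The slope on FGF4 gave 0 calls, 7 with DESeq2 and 0 to 1 leaving out 1 unit. In the replicate block, which covers 14 libraries and leaves out French bulldogs 8 to 11, FGFR1 was -0.22, FGFR2 -0.997 and FGFR3 -0.57, all 3 turning direction. FGF4 did not pass the filter there. Equal numbers were not taken as pairs, since same-numbered libraries correlated at -0.50 to 0.21 and 2 of 14 libraries were most like their own number. FGFR1, at 0.00, turned to -0.0715 with voom, -0.0171 with upper quartile normalization, -0.00508 with 2 and 8 summed, -0.14 against Boston terriers only and -0.11 against the second index series. With voom FGFR2 was -0.46 and FGFR3 0.13. SPRY2 was 0.12 against boxers only and 0.15 against the first index series, FGFR4 0.27 against Boston terriers only, and FGF9 0.54 against the second index series. Between boxers and Boston terriers FGF9 was -0.24 with index series as a term. The FGFR1 slope was -0.00447 with DESeq2, -0.0061 with its size factors and -0.00661 with the first filter, and the FGFR4 correlation was -0.15 with 2 and 8 separate. Leaving out 1 library gave FGFR1 -0.15 to 0.12, FGFR2 -0.16 to 0.80 and FGFR3 0.41 to 1.10 between breeds, slopes of 0.28 to 0.80 for FGFR2 and 0.27 to 0.95 for FGFR3, and of -0.126 to 0.120 for FGFR1 (-0.0021 without 2 and 8), -0.22 to 0.0220 for FGFR4 and -0.36 to 0.0318 for SPRY2, and correlations of -0.32 to 0.12, -0.12 to 0.25 and -0.43 to 0.0167 for the same 3 genes. The causes were not tested.

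FGF4 had 2 to 65 counts, which limits the precision of its level in each dog. Gene lengths were not used here, so levels of different genes cannot be ranked. Libraries 2 and 8 carry the same case number, and the labels give no run that French bulldogs and comparison dogs are known to share, so run and breed group cannot be told apart. Within the comparison group each index series holds both breeds.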

Other observations

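Of the 30 genes whose levels ranked most like FGF4 among French bulldogs (correlation of at least 0.8), 10 lie on 1 chromosome in RefSeq. On the chromosome of the annotated FGF4 gene lie 4 of them. The first chromosome carries 3.09% of the 11601 compared genes with a known chromosome, and that of FGF4 carries 3.43%. The 10 genes include PSMC1, DICER1 and RPS6KA5. The median correlation with FGF4 over the 359 genes of the first chromosome was 0.26, against 0.22 over the 398 of the chromosome of FGF4 and 0.03 over all chromosomes. For the first chromosome and all chromosomes it was 0.30 against 0.03 without French bulldog 6. Other chromosomes had medians nearly as high, up to 0.25, and among chromosomes with at least 50 compared genes the median farthest from 0 was negative, -0.52 over 225 genes. The pattern was noticed after the values were seen and is a description over 10 units, with no test.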
